A study of Mus musculus with 7 samples.

Results

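Neutrophil chemokines, their receptors and growth factor, the alarmins S100a8 and S100a9, and Lcn2 were followed as 10 genes chosen by name out of 21892 gene symbols, in 7 RNA sequencing libraries of mouse tumors. All 10 symbols were in the table. The libraries are labelled as lung tumor, with a deletion in exon 19 of Egfr and subcutaneous passage in C57BL/6 mice. Each of the 7 groups is 1 library. The first received vehicle and was taken at day 3, the second received gefitinib, an inhibitor of the EGFR tyrosine kinase, for 3 days, and another had 14 days of it. The other 4 groups had 14 days of gefitinib followed, up to day 21, by 7 days of the VEGFR2 antibody DC101, the antibody 4H2, which stands for the PD-1 arm of the series title, both antibodies, or vehicle. The treatment field calls both vehicle groups untreated in that period. The labels used here state neither age nor sex, nor how many animals stand behind a library.

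Neutrophils are drawn into tissue by CXC chemokines that carry a Glu-Leu-Arg motif before the first cysteine pair. In the mouse, Cxcl1, Cxcl2, Cxcl3 and Cxcl5 are such ligands, made by epithelial cells, fibroblasts, endothelial cells and macrophages under interleukin 1, TNF and interleukin 17, and read by the receptor Cxcr2 on neutrophils. Csf3 encodes G-CSF, the cytokine that drives the making of neutrophils in the marrow, and Csf3r its receptor on neutrophils and their precursors, with some expression on monocytes. S100a8 and S100a9 encode the 2 chains of calprotectin, which is very abundant in the neutrophil cytosol and acts as an alarmin through Tlr4 and Ager. Lcn2 encodes lipocalin-2, a protein that binds bacterial iron carriers and is made both by neutrophils and by inflamed or malignant epithelium. By these roles Cxcl1, Cxcl2, Cxcl3, Cxcl5, Csf3 and Lcn2 were set on the side of tumor and stroma, and Cxcr2, Csf3r, S100a8 and S100a9 on the side of neutrophils. In bulk RNA the cell of origin is not seen, and fewer cells of a type and less RNA per cell cannot be told apart.

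The values are TPM, a transcript abundance normalized for length and library size, rounded to 0.1. With 1 library per group there was no replicate spread and no test, so each difference is between 2 libraries, and no order of neighbouring levels can be set against an error. The depth of the libraries is unknown. A value of 0 is called listed at 0, since the table also has 0 in each library for 13 of 13 protein genes of the mitochondrial genome. The 4H2 and combination libraries stood apart from the others. The 15 epithelial marker genes summed to 57.2 and 447.9 TPM there, against 1663 to 8710 TPM in the other 5 libraries, and 12 skeletal muscle genes summed to 71261 and 69365 TPM, against 283.9 to 14780 TPM in those 5. Nkx2-1, the lineage factor of lung epithelium, had 391.6 TPM in the day 3 vehicle library, 203.5 and 122.3 TPM at days 3 and 14 of gefitinib, 201 TPM with DC101, 1.1 TPM with 4H2, 14 TPM with the combination and 238.3 TPM in the day 21 vehicle library. Defining markers of the labelled lung tumor were thus close to 0 in the 4H2 library.

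Of the 10 genes only Lcn2 and Csf3r had a mean above 5 TPM, 1 on each side. The other 8 genes gave 56 values, of which 20 were listed at 0, 24 lay above 0 and under 1 TPM, and 12 were at 1 TPM or more. The highest of the 56 was Cxcl3 at 5 TPM in the day 21 vehicle library. Lcn2 made up 96.1 to 99.6% of the summed TPM of its side in 5 libraries, and 27.8% and 77.0% of it in the 4H2 and combination libraries. Csf3r made up 66.7% of the neutrophil side in the day 3 vehicle library and 92.5 to 100% in the others. A contrast of the 2 sides was therefore a contrast of Lcn2 with Csf3r.

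**Figure D1:**
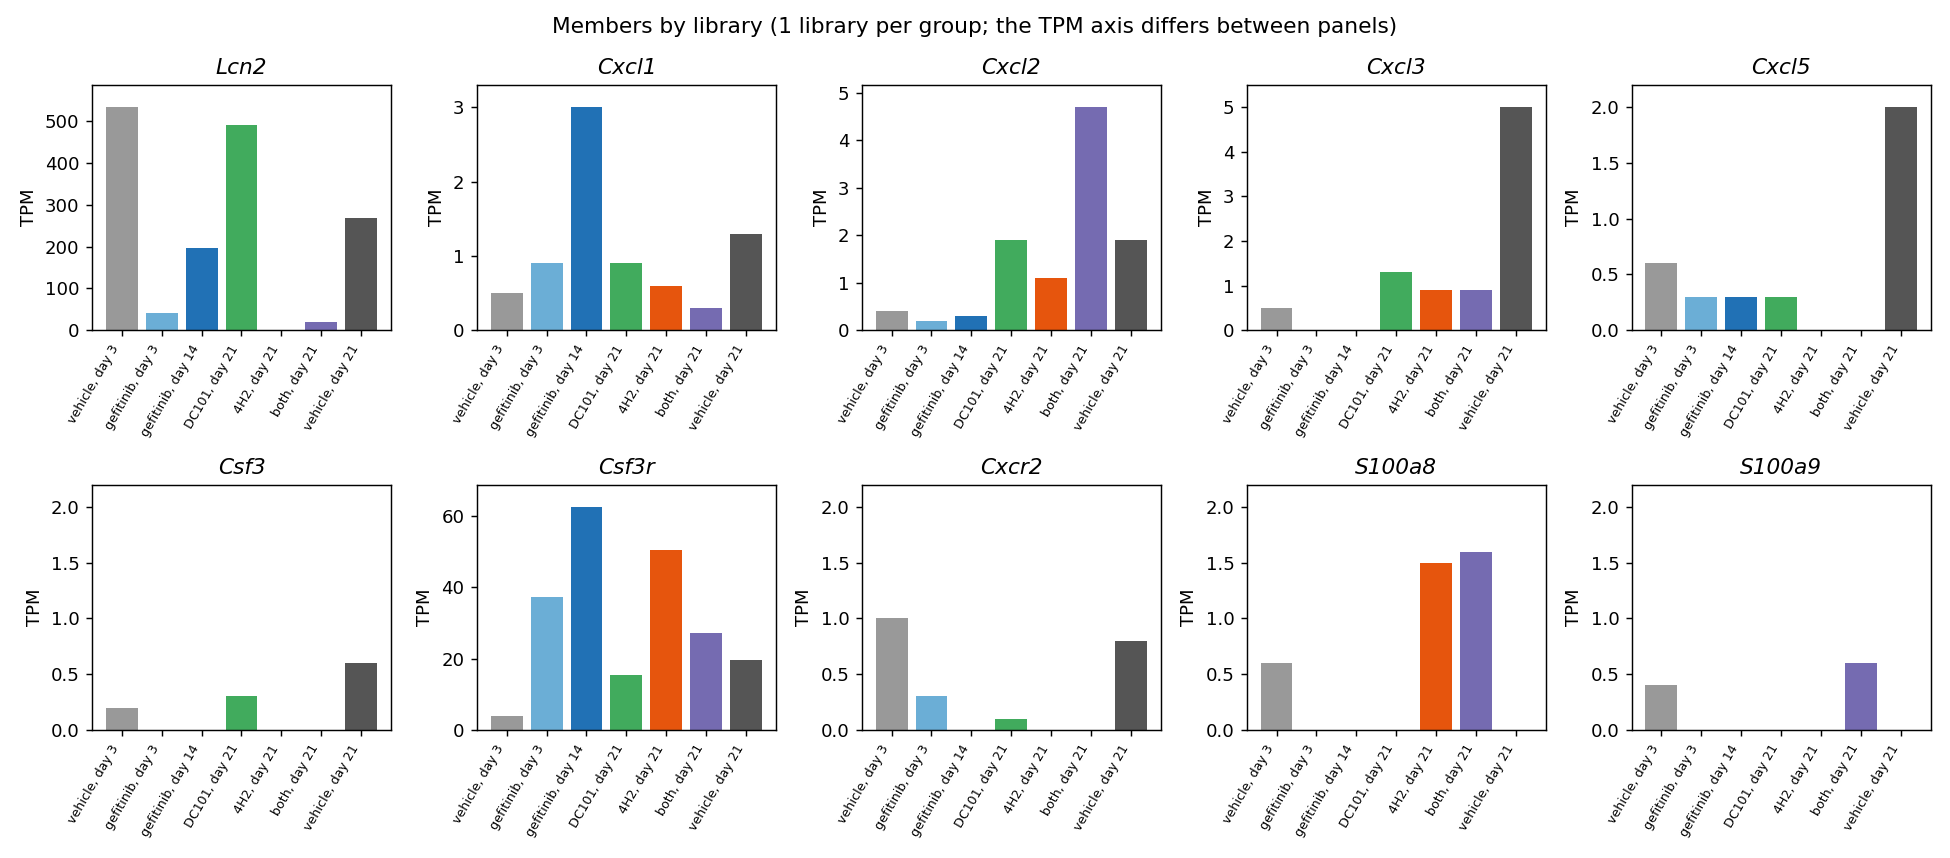
TPM of the 10 genes in the 7 libraries, 1 bar per library, with a TPM axis of its own in each panel that starts at 0. Lcn2 reached 534 TPM and Csf3r 62.6 TPM, while no other panel passes 5 TPM.

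Lcn2 lies on chromosome 2 at 32384637 to 32387739 in GRCm38.p6. The 250 bases before its start site, chr2:32387740-32387989 on the minus strand, are shown because Lcn2 had the widest range of the 10 genes. Sequences are from the RefSeq promoter table of the same build, which held 8 of the 10 genes. Capitals mark matches, on either strand, to the letters TTGCNNAA, a form of the C/EBP site, or to GGG, any 3 bases and then TTCC, a form of the NF-kB site.
Lcn2: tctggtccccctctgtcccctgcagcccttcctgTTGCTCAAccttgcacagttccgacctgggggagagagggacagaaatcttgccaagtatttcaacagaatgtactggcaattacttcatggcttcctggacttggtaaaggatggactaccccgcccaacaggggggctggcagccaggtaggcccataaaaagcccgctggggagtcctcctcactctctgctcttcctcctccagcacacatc
The window held 1 C/EBP form, 216 to 209 bases before the start, and no NF-kB form. Of the 32851 windows of this length in the table, 9.56% hold the C/EBP letters and 4.65% the NF-kB letters.

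Lcn2 had 534 TPM in the day 3 vehicle library, 41.6 and 197.9 TPM at days 3 and 14 of gefitinib, 490.7 TPM with DC101, 1 TPM with 4H2, 19.7 TPM with the combination and 267.6 TPM in the day 21 vehicle library. The day 3 vehicle and DC101 libraries were highest, and the 4H2 and combination libraries lowest. Its place among all genes by TPM ran from 267 in the day 3 vehicle library to 13211 in the 4H2 library. Without those 2 antibody libraries its range was 41.6 to 534 TPM.

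The summed TPM of the 15 epithelial markers in the same order was 4893, 1663, 2433, 5851, 57.2, 447.9 and 8710. Per 100 TPM of these markers, the Lcn2 level was 10.9 for vehicle at day 3, 2.50 at day 3 of gefitinib, 8.14 at day 14, 8.39 with DC101, 1.75 with 4H2, 4.40 with the combination and 3.07 in the day 21 vehicle library. Lcn2 and the epithelial sum were both low with 4H2 and the combination, but they did not keep 1 ratio over the libraries. The part of epithelial content in the level of Lcn2 was not tested.

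By profile, the 5 genes nearest to Lcn2 were Lamp3, a lysosomal protein of alveolar type 2 cells, Bpifa1, a secreted airway defense protein, the claudin gene Cldn3, Plet1 and the glutathione peroxidase gene Gpx2. Nearness was the root mean square difference of log2(TPM + 1) over the 7 libraries, each gene centred on its own mean. It was 0.35 for Lamp3 and 0.53 to 0.60 for the others, against a median of 2.68 over 13993 genes. Lamp3 had 281.2 TPM in the day 3 vehicle library, 37.2 and 93.4 TPM at days 3 and 14 of gefitinib, 278.3 TPM with DC101, 0.9 TPM with 4H2, 12.1 TPM with the combination and 172.9 TPM in the day 21 vehicle library. Lcn2 ranged from 112 per 100 TPM of Lamp3 at day 3 of gefitinib, and 111 with 4H2, to 212 at day 14 of gefitinib. Lrp2, the endocytic receptor that takes up lipocalin-2, was at 133.7, 19.4, 39.5, 105.5, 0.5, 6.4 and 79.3 TPM in that order. The other reported receptor, Slc22a17, stayed between 1 and 8.4 TPM.

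**Figure D2:**
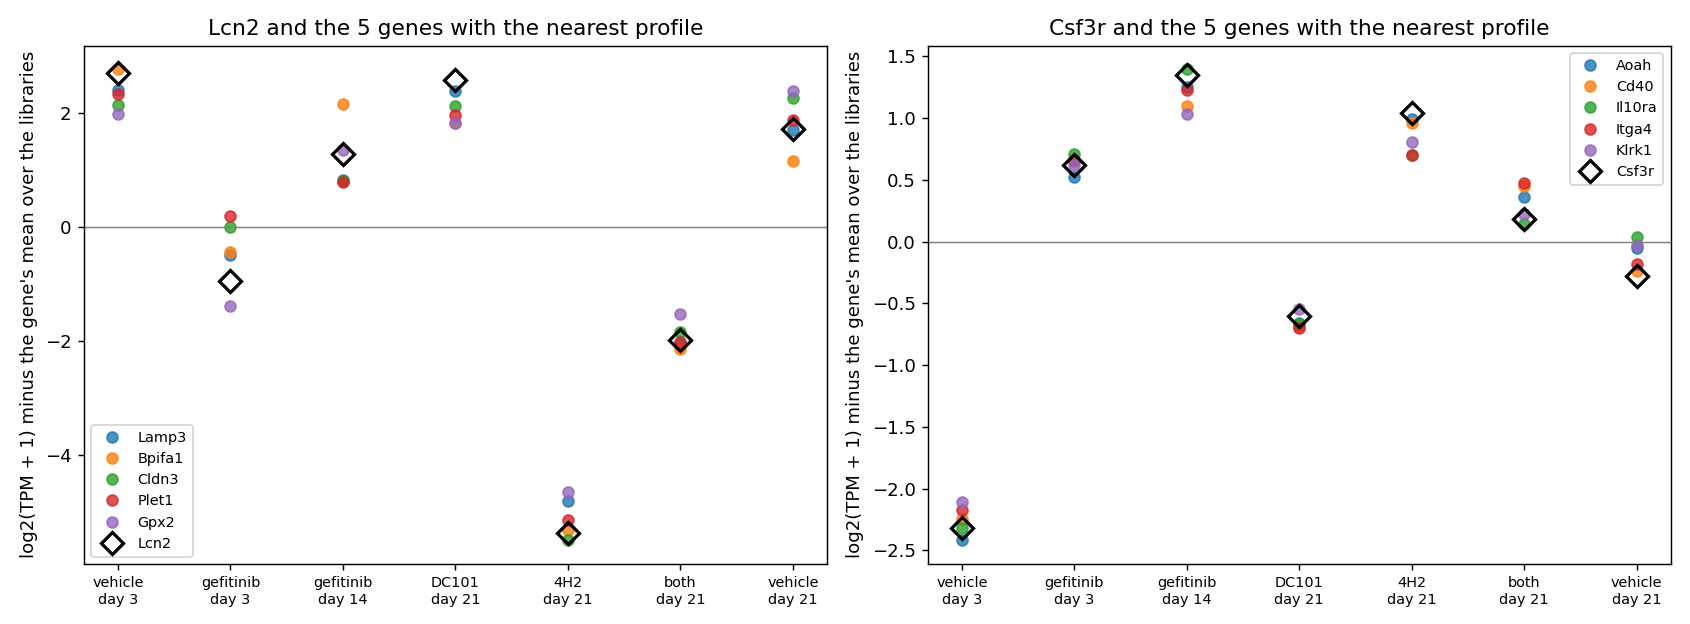
Levels of Lcn2 (left) and Csf3r (right) as open diamonds with their 5 nearest genes as dots, on a log2(TPM + 1) scale with each gene's mean over the 7 libraries taken off. Lcn2 and its neighbours are lowest with 4H2, and Csf3r and its neighbours are lowest in the day 3 vehicle library. The neighbours were chosen by likeness over these same libraries, so the shared lowest library follows largely from that choice.

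Csf3r lies on chromosome 4 at 126023441 to 126044975. The 250 bases before the start site used by the promoter table, chr4:126024409-126024658 on the plus strand, are shown as the counterpart of the Lcn2 window, with the same motifs in capitals.
Csf3r: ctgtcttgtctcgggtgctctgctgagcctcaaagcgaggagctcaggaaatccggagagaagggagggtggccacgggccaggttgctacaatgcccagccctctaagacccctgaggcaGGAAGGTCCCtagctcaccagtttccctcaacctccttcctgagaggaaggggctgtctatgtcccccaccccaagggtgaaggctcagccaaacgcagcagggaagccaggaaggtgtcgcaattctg
The window held 1 NF-kB form, on the minus strand 129 to 120 bases before the start, and no C/EBP form.

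Csf3r had 4 TPM in the day 3 vehicle library, 37.3 and 62.6 TPM at days 3 and 14 of gefitinib, 15.4 TPM with DC101, 50.4 TPM with 4H2, 27.3 TPM with the combination and 19.6 TPM in the day 21 vehicle library. Day 14 of gefitinib and 4H2 were highest, and the day 3 vehicle library was lowest. Lcn2 was high where Csf3r was low in the day 3 vehicle library, and low where Csf3r was high in the 4H2 library. The other libraries did not all show this. At day 14 of gefitinib, where Csf3r was highest, Lcn2 was at 197.9 TPM, and with the combination Lcn2 was at 19.7 and Csf3r at 27.3 TPM.

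The 5 genes nearest to Csf3r by profile were Aoah, a hydrolase that inactivates bacterial lipopolysaccharide in myeloid cells, the costimulatory receptor Cd40, the interleukin 10 receptor chain Il10ra, the integrin chain Itga4 and the NKG2D receptor gene Klrk1. Their root mean square differences were 0.13 to 0.20, against a median of 1.23 over the same 13993 genes. Aoah had 3.5 TPM in the day 3 vehicle library, 33.5 and 56.3 TPM at days 3 and 14 of gefitinib, 14.2 TPM with DC101, 46.8 TPM with 4H2, 29.9 TPM with the combination and 22.2 TPM in the day 21 vehicle library. The 12 macrophage and monocyte markers summed to 1456, 12272, 13884, 5580, 9780, 7597 and 6149 TPM in that order. Per 100 TPM of that sum Csf3r stayed between 0.275, in the day 3 vehicle library, and 0.515, with 4H2. Per 100 TPM of Csf1r, the receptor of the macrophage growth factor, it ranged from 4.66 to 12.5, lowest in the day 3 vehicle library. The part of macrophages in the level of Csf3r was not tested.

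The remaining neutrophil-side genes did not follow Csf3r. Cxcr2, on chromosome 1 at 74153994 to 74161246, had 1 TPM in the day 3 vehicle library, 0.3 TPM at day 3 of gefitinib, 0.1 TPM with DC101 and 0.8 TPM in the day 21 vehicle library, and was listed at 0 in the other 3. The libraries with the most Csf3r, day 14 of gefitinib and 4H2, were among those that listed Cxcr2 at 0. Cxcr1, the second receptor for these ligands, did not pass 0.1 TPM.

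S100a8 and S100a9 lie 22596 bases apart on chromosome 3, at 90669071 to 90670034 and at 90692630 to 90695721. S100a8 had 0.6 TPM in the day 3 vehicle library, 1.5 TPM with 4H2 and 1.6 TPM with the combination, and was listed at 0 in the other 4. S100a9 had 0.4 TPM in the day 3 vehicle library and 0.6 TPM with the combination, and was listed at 0 in the other 5. Both alarmins had RNA listed in the same 2 libraries, the day 3 vehicle and combination ones, and S100a8 alone with 4H2. The combination library, where both were highest, also had the most RNA of 8 keratinocyte and hair genes, at a sum of 450.0 TPM. That sum was 15.6 TPM with 4H2, where S100a8 was at 1.5 TPM. It was 88.4 TPM at day 14 of gefitinib and 27.8 TPM with DC101, where both alarmins were listed at 0. The part of such cells in the alarmin levels was not tested.

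Short transcripts of other S100 genes were measured at high levels in the same libraries. In GENCODE M21 the coding transcript of S100a8 is 486 bases long, and those of S100a9 are 512 and 519. S100a11, with 1 coding transcript of 511 bases, averaged 1042 TPM, S100a6 averaged 345 TPM and S100a10 averaged 341 TPM over the 7 libraries. Of the 14 other S100 genes, 11 had a mean of at least 1 TPM. S100a14, an epithelial member, was at 350.2, 161.4, 127.9, 432.5, 4.9, 42.7 and 588.5 TPM in the order used above, low where the epithelial markers were low. S100a4, found in fibroblasts and leukocytes, ranged from 61.9 TPM, in the day 3 vehicle library, to 210.4 TPM, at day 3 of gefitinib.

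**Figure D3:**
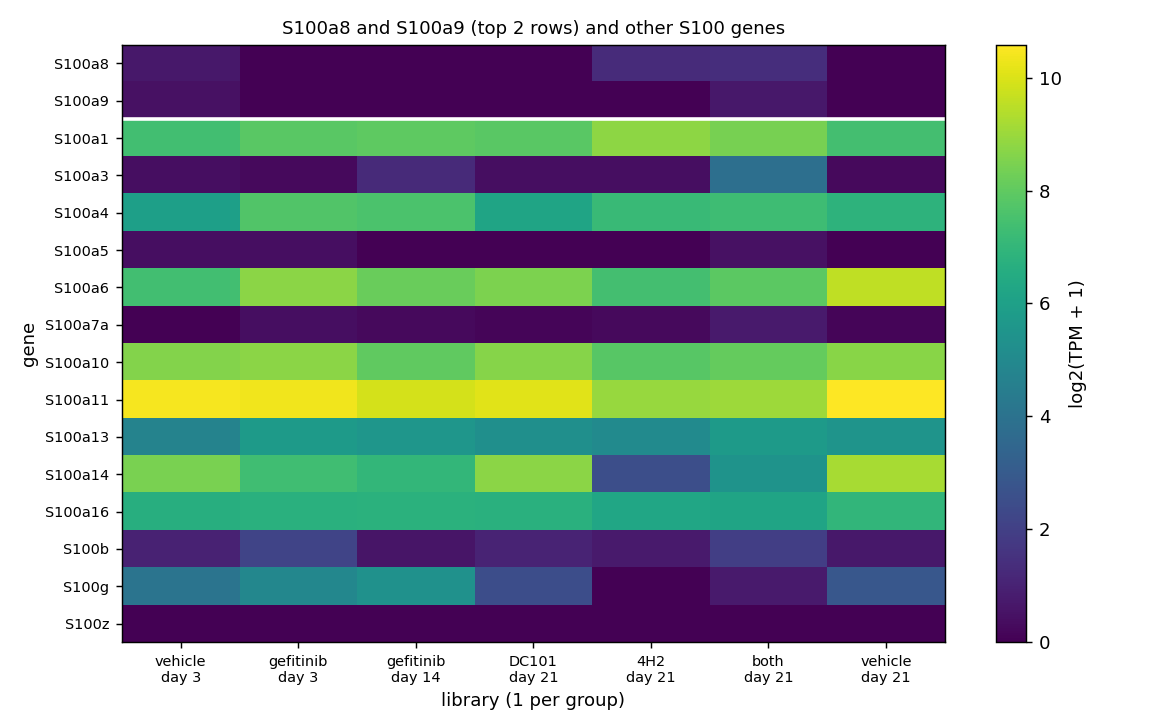
Heat map of log2(TPM + 1) for S100a8 and S100a9 (top) and 14 other S100 genes, with genes down the page and the 7 libraries across. S100a11 is bright in each library, whereas S100a8 does not pass 1.6 TPM.

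Genes of the mature neutrophil and granule lists were uneven, and 13 of 20 and 5 of 12 had a mean of at least 1 TPM. Of all 21892 genes, 13998 did, so the count of the mature list is near the share of all genes. Ly6g, the surface antigen used to identify mouse neutrophils, was listed at 0 in each of the 7 libraries, as were Mrgpra2b and Stfa2. So were 4188 of all 21892 symbols, and with depth unknown a listed 0 does not show that a transcript was absent. Of the 12 granule genes, 6 stayed under 1 TPM in each library, among them the primary granule genes Mpo, Elane and Ctsg and the secondary granule genes Camp and Ngp. The neutrophil collagenase gene Mmp8 did not pass 0.7 TPM. Genes of the 20-member mature neutrophil list that were well above 0 had one of several patterns. Cd177, a surface protein of neutrophils, had 280.5 TPM in the day 3 vehicle library, 1.8 and 15.3 TPM at days 3 and 14 of gefitinib, 184.5 TPM with DC101, 0.4 TPM with 4H2, 4.8 TPM with the combination and 83.9 TPM in the day 21 vehicle library. Ceacam10 was at 87.1, 3.8, 7.1, 51.9, 0.3, 0.6 and 21 TPM and the histidine decarboxylase gene Hdc at 115.9, 21.5, 25.4, 74.8, 2, 8 and 52.9 TPM in the same order. These 3 genes were highest in the day 3 vehicle and DC101 libraries and lowest with 4H2, as Lcn2 was. Ptafr, the receptor of platelet-activating factor, and Fpr2, a formyl peptide receptor, were instead lowest in the day 3 vehicle library, at 10.2 and 0.5 TPM, and stood at 31 to 98 and 4.7 to 20.4 TPM in the others. The macrophage gene Lyz2 supplied most of the granule list, with 772.6 TPM in the day 3 vehicle library and 2953 to 7571 TPM elsewhere. In the libraries with the most Csf3r, day 14 of gefitinib and 4H2, Ly6g was listed at 0 and Mpo too, while other list genes were above 0. Retnlg, a resistin-like gene of neutrophils, was highest at day 14 of gefitinib, at 12.2 TPM, and at 0.5 TPM with 4H2. The lectin receptor genes Clec4d and Clec4e, also used by macrophages, were highest with 4H2, at 21.1 and 7.8 TPM. The gelatinase gene Mmp9 was at 13.8 and 11.7 TPM in these libraries, against 4.3 TPM in the day 3 vehicle library. It was higher at day 3 of gefitinib, at 45.5 TPM, and in the day 21 vehicle library, at 48.2 TPM. Among granule genes, lactoferrin (Ltf) reached 12.2 TPM, with DC101, and Padi4, which citrullinates histones, 8.6 TPM, with the combination.

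**Figure D4:**
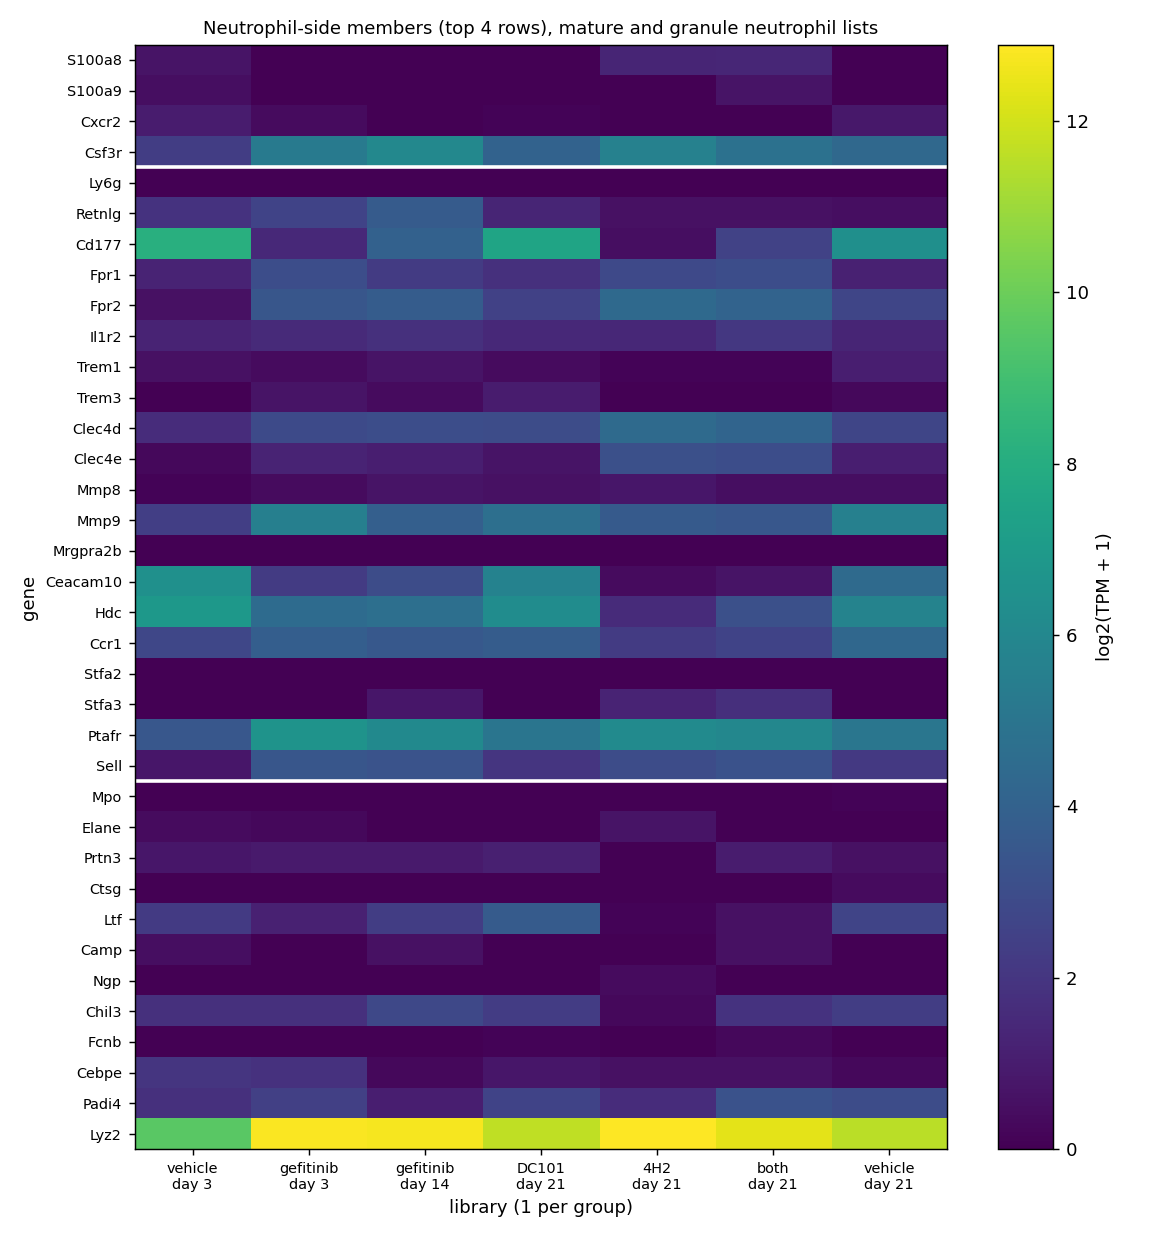
Heat map of log2(TPM + 1) for the 4 neutrophil-side genes (top), the 20 mature neutrophil genes (middle) and the 12 granule genes (bottom) in the 7 libraries. Ly6g, Mpo, S100a8 and S100a9 stay dark in each column, while Cd177, Csf3r, Ptafr and Lyz2 do not.

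The 4 chemokine genes lie together on chromosome 5, between 90759298 and 90905938, in the order Cxcl5, Cxcl3, Cxcl1 and Cxcl2. The 250 bases before the start sites of Cxcl1, Cxcl2 and Cxcl3 are shown because these genes carry NF-kB forms close to the start and yet gave little RNA in any library. The windows are chr5:90890995-90891244, chr5:90903649-90903898 and chr5:90785851-90786100 on the plus strand.
Cxcl1: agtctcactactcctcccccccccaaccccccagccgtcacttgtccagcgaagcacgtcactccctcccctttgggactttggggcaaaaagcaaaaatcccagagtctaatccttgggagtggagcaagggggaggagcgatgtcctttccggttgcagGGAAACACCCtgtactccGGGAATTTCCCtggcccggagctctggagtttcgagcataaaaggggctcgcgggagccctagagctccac
Cxcl2: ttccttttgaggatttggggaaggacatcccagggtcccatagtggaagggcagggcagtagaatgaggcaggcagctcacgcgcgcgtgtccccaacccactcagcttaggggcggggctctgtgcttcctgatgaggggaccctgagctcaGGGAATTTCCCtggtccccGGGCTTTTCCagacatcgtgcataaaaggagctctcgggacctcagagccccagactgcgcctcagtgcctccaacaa
Cxcl3: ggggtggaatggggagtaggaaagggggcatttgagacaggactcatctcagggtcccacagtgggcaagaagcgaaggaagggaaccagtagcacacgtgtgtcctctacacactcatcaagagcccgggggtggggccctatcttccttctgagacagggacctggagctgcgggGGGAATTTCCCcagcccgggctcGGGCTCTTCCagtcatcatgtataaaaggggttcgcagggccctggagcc
Each window held the run GGGAATTTCCC, whose letters match the NF-kB form on both strands, within 97 bases of the start. Cxcl2 and Cxcl3 held a further match, GGGCTTTTCC and GGGCTCTTCC, nearer to the start, and Cxcl1 one farther away on the minus strand. None of the 3 windows held the C/EBP form.

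Cxcl1 had 0.5 TPM in the day 3 vehicle library, 0.9 and 3 TPM at days 3 and 14 of gefitinib, 0.9 TPM with DC101, 0.6 TPM with 4H2, 0.3 TPM with the combination and 1.3 TPM in the day 21 vehicle library. Cxcl2 had 0.4, 0.2, 0.3, 1.9, 1.1, 4.7 and 1.9 TPM in that order. Cxcl3 had 0.5 TPM in the day 3 vehicle library, listed at 0 at both gefitinib times, and at 1.3 TPM with DC101, 0.9 TPM with 4H2, 0.9 TPM with the combination and 5 TPM in the day 21 vehicle library. The labels do not say how reads shared by these similar paralogs were assigned, so their split is uncertain. The 3 neighbours peaked in 3 different libraries, Cxcl1 at day 14 of gefitinib, Cxcl2 with the combination and Cxcl3 in the day 21 vehicle library.

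Cxcl5 had 0.6 TPM in the day 3 vehicle library, 0.3 TPM at both gefitinib times, 0.3 TPM with DC101 and 2 TPM in the day 21 vehicle library, and was listed at 0 in the other 2. The 4 chemokines summed to 10.2 TPM in the day 21 vehicle library and to 1.4 to 5.9 TPM in the other 6. Csf3, on chromosome 11 at 98700183 to 98703631, had 0.2 TPM in the day 3 vehicle library, 0.3 TPM with DC101 and 0.6 TPM in the day 21 vehicle library, and was listed at 0 in the other 4. The libraries with Csf3 RNA were the 3 with the most Lcn2, but these Csf3 values lie a few rounding steps of 0.1 TPM from 0. With depth unknown they do not separate presence from absence. Csf3 was highest in the day 21 vehicle library and Lcn2 in the day 3 vehicle library. Among other ligands, Ppbp did not pass 2.6 TPM and Cxcl15 was listed at 0 throughout.

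Differences between 2 libraries were computed as log2((TPM + 1) / (TPM + 1)), and a gene counted as higher or lower at 2-fold or more on that scale, which makes the differences of low genes smaller than their TPM ratios. Of the 10 genes, 5 reached a mean of 1 TPM over the libraries, as did 13998 genes in all. These were Cxcl1, Cxcl2, Cxcl3, Lcn2 and Csf3r. The 3 chemokines reached it mainly through the libraries where they were highest, so their counts support nothing. These pairs share libraries. Day 3 vehicle and day 14 of gefitinib each enter 2 of the 6 pairs, and day 21 vehicle enters 4.

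At day 3 of gefitinib, Lcn2 was at 41.6 TPM against 534 TPM in the day 3 vehicle library, a log2 difference of -3.65, and Csf3r was at 37.3 against 4 TPM, a log2 difference of 2.94. These were the 2 of 5 counted genes at least 2-fold apart, where 35.2% of all genes were. The median over the 6 tumor and stroma genes was -0.28 and over the 4 neutrophil-side genes -0.55, with all genes at -0.09. The neutrophil-side median rests on 3 genes near 0, and was -1.89 with a pseudocount of 0.1 and 2.94, Csf3r alone, with a mean of at least 5 TPM. Epithelial markers had a median of -1.69, with 12 of 15 lower, and macrophage markers 3.01, with 11 of 12 higher. Lcn2 was thus farther below vehicle than the epithelial median was. Csf3r lay at the level of the macrophage median, and also of the fibroblast (2.91), T cell (3.08) and skeletal muscle (2.83) medians.

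At day 14 of gefitinib, Lcn2 was at 197.9 against 534 TPM in the day 3 vehicle library (-1.43), Csf3r at 62.6 against 4 TPM (3.67) and Cxcl1 at 3 against 0.5 TPM (1.42). These 3 of 5 genes were at least 2-fold apart, as were 35.4% of all genes. Cxcl1 reached a mean of 1 TPM mainly through this day 14 library, so its count supports nothing. Medians were -0.28 for tumor and stroma genes, -0.58 for neutrophil-side genes and 0.03 for all genes, and with Csf3r alone the neutrophil side was at 3.67. The epithelial median was -0.96, with 7 of 15 lower, the macrophage median 3.15, with 11 of 12 higher and 1 lower, and the T cell median 4.74, with 5 of 5 higher. Fibroblast and skeletal muscle medians were 2.53 and 3.60. The 2 libraries differ in day as well as in drug, and these cannot be told apart.

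After 7 days off gefitinib, the day 21 vehicle library had Lcn2 at 267.6 TPM, against 197.9 TPM at day 14 of gefitinib, under 2-fold apart (0.43). Csf3r was at 19.6 against 62.6 TPM (-1.63), Cxcl2 at 1.9 against 0.3 TPM (1.16) and Cxcl3 at 5 TPM against a listed 0 (2.58). Cxcl5, under the mean of 1 TPM, was at 2 against 0.3 TPM (1.21). Csf3r, Cxcl2 and Cxcl3 were thus 3 of 5 genes at least 2-fold apart, and 15.5% of all genes were. Cxcl3 reached a mean of 1 TPM mainly through this day 21 vehicle library, so its count supports nothing. The median was 0.92 for tumor and stroma genes and 0 for neutrophil-side genes, with all genes at -0.01. The epithelial median was 1.46, with 11 of 15 higher, so Lcn2 lay below it. The macrophage median was -1.16, with 9 of 12 lower.

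With DC101, Lcn2 was at 490.7 TPM against 267.6 TPM in the day 21 vehicle library (0.87), and Csf3r at 15.4 against 19.6 TPM (-0.33), both under 2-fold. Cxcl3, at 1.3 against 5 TPM (-1.38), was the 1 gene of 5 at least 2-fold apart, and 4.24% of all genes were. It reached a mean of 1 TPM mainly through the day 21 vehicle library, so this count supports nothing. Medians were -0.29 for tumor and stroma genes, -0.16 for neutrophil-side genes and -0.05 for all genes. Lcn2 was above vehicle while the epithelial median was below it at -0.39. Cd177, at 184.5 against 83.9 TPM (1.13), and Ceacam10, at 51.9 against 21 TPM (1.27), were the 2 genes of the mature neutrophil list that were at least 2-fold higher. Skeletal muscle genes summed to 14780 against 2738 TPM in this pair.

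With 4H2, Lcn2 was at 1 TPM against 267.6 TPM in the day 21 vehicle library (-7.07), Cxcl3 at 0.9 against 5 TPM (-1.66) and Csf3r at 50.4 against 19.6 TPM (1.32). These 3 of 5 genes were at least 2-fold apart, and 30.9% of all genes were. The count of Cxcl3 again rests on the day 21 vehicle library and supports nothing. Medians were -1.13 for tumor and stroma genes, 0.66 for neutrophil-side genes and -0.21 for all genes. All 15 epithelial markers were lower, at a median of -6.51, close to the difference of Lcn2. The T cell median was 1.20, with 3 of 5 higher, and the macrophage median 0.63, with 2 of 12 higher.

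With both antibodies, Lcn2 was at 19.7 TPM against 267.6 TPM in the day 21 vehicle library (-3.70) and Cxcl3 at 0.9 against 5 TPM (-1.66). Cxcl2, at 4.7 against 1.9 TPM (0.97), and Csf3r, at 27.3 against 19.6 TPM (0.46), were under 2-fold. Lcn2 and Cxcl3 were the 2 of 5 genes at least 2-fold apart, and 28.7% of all genes were. The count of Cxcl3 rests on the day 21 vehicle library here too and supports nothing. Medians were -1.20 for tumor and stroma genes, 0.57 for neutrophil-side genes and -0.17 for all genes. All 15 epithelial markers were lower, at a median of -4.00.

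**Figure D5:**
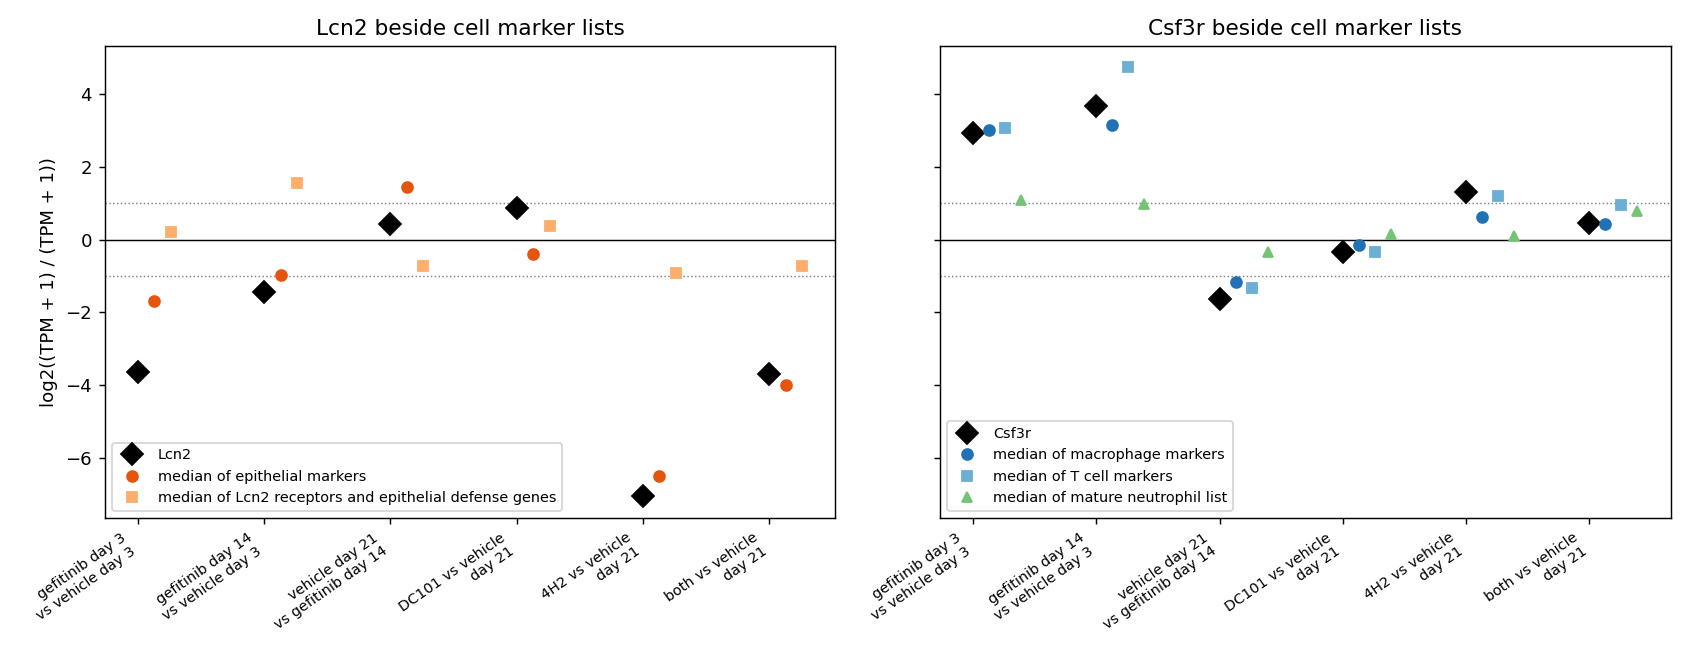
Log2 differences of Lcn2 (left, diamonds) and Csf3r (right, diamonds) in the 6 pairs of libraries, beside medians of marker lists, with dotted lines at 2-fold. Lcn2 lies near the epithelial median with 4H2 and with the combination and far below it at day 3 of gefitinib. At day 3 and day 14 of gefitinib, Csf3r lies nearer to the macrophage and T cell medians than to the mature neutrophil median. Fibroblast and skeletal muscle medians are not drawn.

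Of the cytokines that induce neutrophil chemokines, Il17a and Il17f were near 0 while Tnf and Il1b were not. In the list of these cytokines and their receptors, 3 of 10 genes with a mean of at least 1 TPM were higher and 2 lower at day 3 of gefitinib, and 4 higher and 2 lower at day 14, where 35.2% and 35.4% of all genes were 2-fold apart. Il17a was listed at 0 in each library, and Il17f and Il6 did not pass 0.3 and 1.2 TPM. The interleukin 17 receptor gene Il17ra ranged from 14.5 TPM, in the day 3 vehicle library, to 68.2 TPM, at day 14 of gefitinib. Tnf had 2.4 TPM in the day 3 vehicle library, 21.5 and 27.9 TPM at days 3 and 14 of gefitinib, 17.6 TPM with DC101, 45.2 TPM with 4H2, 33 TPM with the combination and 21.8 TPM in the day 21 vehicle library. Il1b was at 3.8, 8.1, 19.9, 15.7, 7.5, 4.4 and 19.7 TPM in that order, so Tnf was highest and Il1b among the lower ones with 4H2. Csf2, which encodes GM-CSF, was at 0.6 and 0.2 TPM with 4H2 and the combination, against 7.8 TPM in the day 21 vehicle library.

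Of 14 NF-kB response genes, 11 were higher at day 3 and 12 at day 14 of gefitinib, with none lower, at medians of 1.37 and 1.92, where 35.2% and 35.4% of all genes were 2-fold apart in either direction. The inhibitor gene Nfkbia was at 218.3 and 320.5 TPM at these times against 78.2 TPM in vehicle, and Tnfaip3, which ends NF-kB signalling, at 39.3 and 58.5 against 6.7 TPM. In the same libraries Cxcl1, Cxcl2, Cxcl3 and Cxcl5 summed to 1.4 and 3.6 TPM against 2 TPM. Nfkbiz, a cofactor for Lcn2 and chemokine transcription, was at 36.3 and 56 against 14.4 TPM, while Lcn2 was lower in both. With 4H2 and with the combination, 3 of 14 NF-kB genes were higher and 2 lower than in the day 21 vehicle library, near the 30.9% and 28.7% of all genes that were 2-fold apart. Ptgs2, the inducible cyclooxygenase, was at 13.9 and 7.3 against 2.2 TPM, and Ccl20, a chemokine of epithelium, was listed at 0 and at 5.1 against 14.5 TPM. With DC101 none of the 14 was 2-fold apart from vehicle, in a pair where only 4.24% of all genes were.

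Genes that let leukocytes leave vessels, and a list of Csf1 and the receptors for CSF1, GM-CSF and interleukin 3, were higher with Csf3r at both gefitinib times, but did not reach 2-fold higher with 4H2. All 8 adhesion and egress genes were at least 2-fold higher at day 3 and at day 14 of gefitinib than in the day 3 vehicle library, with medians of 2.39 and 2.42. In these pairs 35.2% and 35.4% of all genes were 2-fold apart in either direction. Itgb2, the integrin chain shared by leukocytes, was at 375 and 384.6 against 70.3 TPM and P-selectin (Selp), which slows leukocytes on the vessel wall, at 7.9 and 14.1 against 1.3 TPM. All 6 genes of the growth factor list were higher at both times too, among them Csf1r at 554.7 and 665.9 against 85.8 TPM and Csf2rb at 170 and 211.6 against 68 TPM. With 4H2, where Csf3r was at 50.4 against 19.6 TPM, none of the 8 egress genes was at least 2-fold higher than in the day 21 vehicle library and 1 was lower, and none of the 6 growth factor genes was 2-fold apart. Of all genes, 30.9% were 2-fold apart in that pair. The selectin genes Sele and Selp were highest with DC101, at 4.7 and 17.6 TPM, where Csf3r was at 15.4 TPM. Ackr1, a venule receptor that presents chemokines without signalling, was at 9 and 26.6 TPM at days 3 and 14 of gefitinib against 1 TPM in the day 3 vehicle library. Of 8 receptors and partners of S100A8 and S100A9, 3 were higher at each time and none and 1 lower, set against 35.2% and 35.4% of all genes 2-fold apart. Ager was at 1254 and 815.8 against 269.9 TPM, and is also a marker of alveolar type 1 cells, whereas Tlr4 was at 20.1 and 19.9 against 12 TPM. With 4H2 and the combination Ager was at 11.6 and 29.2 against 627.2 TPM in the day 21 vehicle library.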

How the data were processed

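RNA was extracted from frozen tumor tissue, depleted of ribosomal RNA and made into directional libraries, per the labels' protocols. The authors deposited TPM values for 21892 gene symbols in 7 columns, 1 per group, normalized to about 1000000 per library and rounded to 1 decimal. The build is GRCm38.p6, per the submitters' processing notes, with aligner, counter and annotation not given in the sources used here. Depth is unknown, so no interval or limit for a value of 0 was computed.

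Columns were matched to samples by title. Differences used log2(TPM + 1), and genes with a mean of at least 1 TPM (13998) gave the background of 2-fold differences in 6 pairs of libraries. No p-value was computed, as each group had 1 library. 22 gene lists with 218 entries, 215 found, covered neutrophil biology and cell markers. Named genes were the 10 members, list genes with the highest mean or largest difference, and the 5 genes nearest to Lcn2 and to Csf3r. For the 8 lower members, near the rounding step, nearest genes are not given. Members, lists and comparisons were chosen with earlier results of these data known. The motifs, and list genes named for a known role rather than by that rule, were chosen after their sequences or values were seen. The difference calculation was tested on simulated data. Gene positions, found for all 10 members by symbol, and promoter windows, found for 8, came from RefSeq tables of GRCm38.p6, and transcript lengths from GENCODE M21. Alternatives were a pseudocount of 0.1 or of 5, leaving out the filter, requiring a mean of 5 TPM, a median-of-ratios rescaling over 7340 genes and a rescaling without 252 muscle, hemoglobin, mitochondrial, histone, ribosomal and most abundant genes. Python 3.11.15, pandas 2.3.3, numpy 2.4.6 and matplotlib 3.10.9 were used.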

Additional observations from a re-analysis of the deposited data

How the results depend on the processing

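The 72 recomputed differences of Lcn2 and Csf3r kept their direction and their side of the 2-fold line under all 6 alternatives. Leaving out the filter and requiring a mean of 5 TPM change only which genes are counted. Those settings could not move a single difference, so only the pseudocounts and rescalings bear on this. Lcn2 ranged from -3.73 to -3.53 at day 3 of gefitinib and from -7.93 to -5.51 with 4H2, and Csf3r from 2.23 to 3.19 at day 3 of gefitinib. Of all 312 recomputed single differences 39 crossed the 2-fold line, each of a member with a mean under 5 TPM, and no difference of 2-fold or more changed sign. The median of all genes was -0.21 with 4H2 and 0.02 under median-of-ratios rescaling, and -0.17 and 0.05 with the combination.

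The count of members 2-fold apart changed under some setting in each of the 6 pairs. It was 2 at day 3 of gefitinib and ranged from 2 to 3, and it was 3 at day 14 and ranged from 2 to 4. With 4H2 it was 3 and became 5 with no filter, 4 with a pseudocount of 0.1 and 2 with a pseudocount of 5 or a mean of at least 5 TPM. With the combination it was 2 and became 4 with a pseudocount of 0.1 or no filter and 1 with a pseudocount of 5 or a mean of at least 5 TPM, and 3 under both rescalings. With DC101 it was 1 and became 2 with no filter and 0 with a pseudocount of 5 or a mean of at least 5 TPM. After gefitinib it was 3 and became 4 with a pseudocount of 0.1 or no filter, 2 with a pseudocount of 5 and 1 with a mean of at least 5 TPM.

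The neutrophil-side median with a pseudocount of 0.1 was -1.89 and -2.56 at days 3 and 14 of gefitinib and 1.64 with the combination. With a mean of at least 5 TPM it was Csf3r alone, at 2.94, 3.67, -1.63 after gefitinib and 1.32 with 4H2, so the sign at both gefitinib times rests on genes near 0. The tumor and stroma median was -1.20 and -1.12 at days 3 and 14 of gefitinib and 2.36 after it with a pseudocount of 0.1, and 1.08 after gefitinib under the rescaling without muscle and abundant genes. With a pseudocount of 5 it was -0.33 with 4H2 and -0.37 with the combination, and with Lcn2 alone -3.65 and -1.43 at the gefitinib times. The rounding step of 0.1 TPM limits the 8 lower members. No paired analysis was possible because each group has 1 library.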

Other observations

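Several other alarmin genes were at higher TPM than S100a8 and S100a9, but Tslp did not pass 2 TPM and the acute phase gene Saa1 did not pass 0.5 TPM. Il33, an alarmin cytokine of epithelium and stroma, stayed between 31.9 and 59.7 TPM over the 7 libraries. The nuclear alarmin genes Hmgb1 and Hmgb2 were highest in the day 3 vehicle library, at 303.5 and 316.5 TPM. Anxa1, whose product restrains neutrophil entry, was at 250.7 and 201.9 TPM at days 3 and 14 of gefitinib against 119.5 TPM in the day 3 vehicle library.

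Saa3, an acute phase gene of macrophages and stroma, was at 343.6 TPM with 4H2 and 227.9 TPM with the combination, against 55.9 TPM in the day 21 vehicle library, while Lcn2 was lower in both. Nos2, the inducible nitric oxide synthase, was at 106 and 70.8 against 9.7 TPM in the same pairs. Wfdc2 and Bpifa1 were lower there, as Lcn2 was, at 5.1 and 35.5 TPM with 4H2 against 899.7 and 3235 TPM. Haptoglobin (Hp) was at 493.5 TPM and the antiprotease gene Slpi at 170.2 TPM at day 14 of gefitinib, against 16.3 and 3.2 TPM in the day 3 vehicle library. Complement C3 was at 911.6 against 203.9 TPM in that pair. The Lcn2 receptor and epithelial defense list had 13 genes with a mean of at least 1 TPM. In that pair 8 were higher and 1, Lrp2, lower, where 35.4% of all genes were 2-fold apart. At day 3 of gefitinib 5 were higher and 4 lower (35.2% of all genes). After gefitinib none was higher and 5 were lower (15.5%). Against the day 21 vehicle library, 3 were higher and 6 lower with 4H2 (30.9%). With the combination 3 were higher and 5 lower (28.7%), and with DC101 1 was higher and 1 lower (4.24%).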
